A study of Mus musculus with 50 samples.

Results

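The 10 genes Pou5f1, Nanog, Sox2, Zfp42, Esrrb, Klf2, Klf4, Tbx3, Utf1 and Sall4 encode the core transcription factors of mouse embryonic stem (ES) cells. They were picked out by gene symbol, from a list drawn up with earlier results of these data known, and all 10 were found among the 24391 genes of the deposited RNA count tables. They were measured in 6 libraries of differentiated ES cells and 2 libraries of mouse embryonic fibroblasts (MEF), the 8 poly(A) RNA libraries among the 50 samples of the study. The other 42 samples were not analysed here.

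The ES cells were hybrids of CAST/Ei and 129/Sv/Jae, so that reads over strain differences can be given to one parental chromosome. RepB-/- cells lacked Repeat B, a tandem repeat within the long non-coding RNA Xist, on both copies, RepB+/- cells lacked it on 1 copy, and wild-type cells carried it on both, with 2 libraries per genotype. The labels give neither the number of clones behind each genotype nor which parental copy was deleted in RepB+/-. All ES cultures were kept on irradiated MEF feeders with leukaemia inhibitory factor (LIF) for 3 days, were grown without feeders as embryoid bodies for 4 days and were then plated on gelatin for 10 days. The RepB MEF library and the wild-type MEF library had no replicate, and the RepB MEF label does not say whether 1 or both copies of the repeat were lost. Xist coats the inactive X chromosome, and the series asks what its repeats contribute to that chromosome. All 10 factors are autosomal.

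Pou5f1 (also called Oct4) and Sox2 bind DNA side by side and, with Nanog, hold ES cells in an undifferentiated state. Esrrb, Klf2, Klf4 and Tbx3 connect this circuit to LIF and other signals, Zfp42 (Rex1) is a marker of the naive state, and Utf1 and Sall4 act on chromatin in the same cells. When ES cells form embryoid bodies, most of these genes are switched off. Klf2, Klf4, Tbx3, Sox2 and Sall4 are also used by differentiated or progenitor cells. Their RNA in a differentiated culture can thus come from stem cells that remain or from other cells, and in a bulk library fewer cells and less RNA per cell cannot be told apart.

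Promoter sequences are shown for factors that rose, with the motifs of the circuit's own proteins that they hold. RefSeq windows of 250 bases before a transcription start (GRCm38.p6) were on hand for 8 of the 10 genes, in 11 windows. The stretches below were chosen for their octamer and nuclear receptor matches, and other matches within or outside them are not marked. Capitals mark TTTGCAT (the octamer core bound by Pou5f1, ATGCAAA on the other strand) in Sox2 and Zfp42, the same core followed, after any 1 base, by ACAA (a Sox-type HMG core) in Nanog, and AGGTCA (the nuclear receptor core recognised by Esrrb) in Pou5f1.
Pou5f1, chr17:35505932-35506031, plus strand: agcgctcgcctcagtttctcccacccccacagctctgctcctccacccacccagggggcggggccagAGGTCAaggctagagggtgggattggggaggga
Nanog, chr6:122707329-122707488, plus strand: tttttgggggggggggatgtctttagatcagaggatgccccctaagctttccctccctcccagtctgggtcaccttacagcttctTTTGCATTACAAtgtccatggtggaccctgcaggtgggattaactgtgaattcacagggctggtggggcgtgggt
Zfp42, chr8:43307130-43307229, minus strand: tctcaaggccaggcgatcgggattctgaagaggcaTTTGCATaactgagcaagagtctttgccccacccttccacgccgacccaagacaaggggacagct
Sox2, chr3:34649835-34649994, plus strand: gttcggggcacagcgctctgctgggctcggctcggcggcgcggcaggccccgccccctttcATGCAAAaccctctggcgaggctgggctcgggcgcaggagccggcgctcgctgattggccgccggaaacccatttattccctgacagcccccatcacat

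On either strand, TTTGCAT was present in the windows of Nanog, Sox2 and Zfp42 and in 4.12% of all 32851 windows. TTTGCAT followed after any 1 base by ACAA, which overlaps the shorter core, was present in Nanog and in 0.0335% of windows. AGGTCA stood in the windows of Nanog, Pou5f1 and Sox2 and in 14.0% of windows. GGGNGTG, a GC-rich core of the kind Klf factors bind, stood in Esrrb, Nanog, Pou5f1 and Zfp42 and in 26.1% of windows. The windows of Klf2, Klf4 and Utf1 held none of these 4 strings. A match describes these letters and is not evidence of binding.

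Total counts per library lay between 8000722 (RepB+/- replicate 2) and 28045645 (RepB-/- replicate 1), and the fit across genes had a common biological coefficient of variation of 9.49%. On the first principal component (50.8% of the variance), RepB libraries had scores of -24.3 to -13.8 and wild-type libraries had scores of 33.2 and 45.7. The second, with 23.6%, set RepB+/- replicate 2 apart at -39.2, so the results of that genotype are also given without it. Nothing in the labels says that the replicates were separate cultures, so the p-values reflect library-to-library spread that may be technical. In CPM (counts scaled to the library's size after TMM normalisation), Xist had 828.4 and 1148.7 CPM in RepB-/-, 916.5 and 808.6 CPM in RepB+/- and 909.7 and 902.2 CPM in wild type. The deletion removes only a part of the transcript, so this gene's total count does not check the genotype labels.

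In RepB-/- cultures, 6 of the 10 factors rose and 2 fell relative to wild type. Pou5f1, Nanog, Sox2, Zfp42 and Esrrb were each more than 2-fold higher and Klf2 was 1.57-fold higher, whereas Tbx3 and Sall4 fell. Klf4 and Utf1 did not pass the test. Of all 15149 genes tested by edgeR's quasi-likelihood test with Benjamini-Hochberg adjustment at 0.05, 12.8% were called, 7.27% rising and 5.49% falling. Separate libraries without overlap were found for 6 factors that were higher (31.5% of all genes) and 3 that were lower (27.9% of all genes), Klf4 among them. The median log2 fold change was 0.87 over the 10 factors, against 0.01 over all genes tested.

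**Figure D1:**
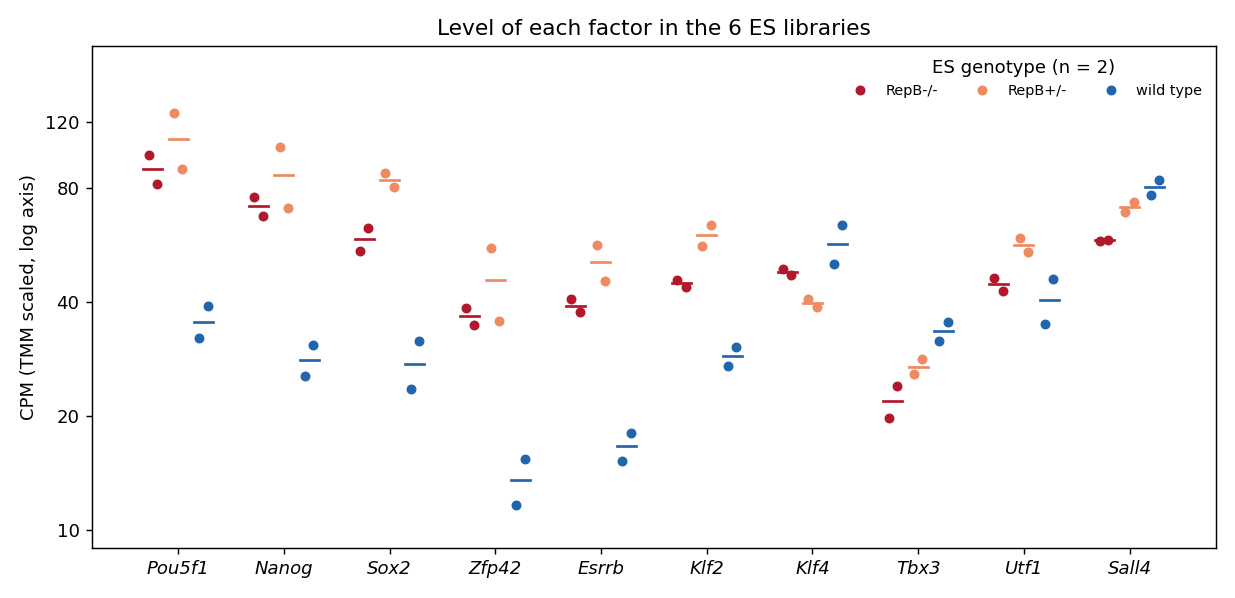
Level of each factor (CPM on a log axis) in the 6 ES libraries, with a point per library and a line at the mean of each genotype. For Pou5f1, Nanog, Sox2, Zfp42, Esrrb and Klf2 every RepB library lies above both wild-type libraries, and for Klf4, Tbx3 and Sall4 every RepB library lies below them.

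The triad at the centre of the circuit moved together. Pou5f1, the POU-domain factor whose amount sets stem cell identity, had 98.2 and 82.0 CPM in RepB-/- libraries, 126.5 and 89.96 CPM in RepB+/- libraries and 32.1 and 39.0 CPM in wild-type libraries. The lowest RepB library was thus more than 2-fold above the highest wild-type one. In RepB-/- the log2 fold change was 1.35 (SE 0.15, edgeR adjusted p = 5.61e-05).

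Nanog, the homeobox factor that stabilises the stem cell state, had 75.7 and 67.6 CPM in RepB-/-, 102.5 and 71.1 CPM in RepB+/- and 25.5 and 30.8 CPM in wild type. Its change in RepB-/- was 1.36 on the log2 scale (SE 0.15, edgeR adjusted p = 5.55e-05). Nanog and Pou5f1 have processed copies elsewhere in the mouse genome, and reads that these copies share could have been split or misplaced in the counting.

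Sox2, the HMG-box partner of Pou5f1 and also a factor of neural progenitors, had 54.5 and 63.0 CPM in RepB-/-, 87.9 and 80.4 CPM in RepB+/- and 23.6 and 31.5 CPM in wild type. The genotypes did not overlap in any pair, with RepB+/- highest. Its change in RepB-/- was 1.10 (log2, SE 0.14, edgeR adjusted p = 0.000106).

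Among the factors of the naive state, Zfp42 encodes a zinc finger protein. Its levels were 38.6 and 34.8 CPM in RepB-/-, 55.6 and 35.8 CPM in RepB+/- and 11.7 and 15.4 CPM in wild type. Both RepB genotypes were clear of wild type, while RepB-/- and RepB+/- overlapped. The RepB-/- change was 1.46 (log2, SE 0.18, edgeR adjusted p = 0.000126).

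Esrrb, an orphan nuclear receptor that Nanog activates, had 40.8 and 37.7 CPM in RepB-/-, 56.6 and 45.5 CPM in RepB+/- and 15.3 and 18.1 CPM in wild type. No RepB library came near the wild-type values. The RepB-/- change was 1.25 (log2, SE 0.14, edgeR adjusted p = 4.69e-05).

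The Krüppel-like factors, zinc finger proteins that can replace one another in ES cells, did not move alike. Klf2 had 45.8 and 44.0 CPM in RepB-/-, 56.3 and 64.1 CPM in RepB+/- and 27.2 and 30.4 CPM in wild type, and rose in RepB-/- by 0.65 (log2, SE 0.12, edgeR adjusted p = 0.00201). Klf4 had 48.9 and 47.2 CPM in RepB-/-, 40.9 and 38.9 CPM in RepB+/- and 50.4 and 63.8 CPM in wild type. Klf4 was thus lower in every RepB library, but only narrowly for RepB-/- replicate 1. The RepB-/- change of -0.24 had a 95% interval of -0.50 to 0.01 (edgeR adjusted p = 0.205).

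Tbx3, a T-box factor of the LIF-dependent circuit that also acts in limb, heart and extraembryonic tissue, had 19.8 and 24.1 CPM in RepB-/-, 25.8 and 28.3 CPM in RepB+/- and 31.7 and 35.5 CPM in wild type. The 3 genotypes did not overlap. Tbx3 fell by 0.62 on the log2 scale in RepB-/- (SE 0.13, edgeR adjusted p = 0.00716). The call was lost without RepB-/- replicate 1, when the change was -0.48 (adjusted p = 0.0944), and without wild-type replicate 2, when it was -0.53 (adjusted p = 0.0913), and the adjusted p ranged from 0.000318 to 0.0944 over 12 alternatives.

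Of the chromatin-associated factors, Sall4, a zinc finger protein that recruits repressor complexes, had 58.2 and 58.5 CPM in RepB-/-, 69.2 and 73.7 CPM in RepB+/- and 77.0 and 84.0 CPM in wild type. These levels were separate between the genotypes and the RepB-/- libraries were nearly equal. Sall4 fell by 0.46 in RepB-/- (log2, SE 0.10, edgeR adjusted p = 0.00846). Its fold change stayed between -0.53 and -0.38 in all 12 alternatives. The adjusted p was 0.0537 without RepB-/- replicate 1, 0.0535 without RepB-/- replicate 2 and 0.125 without wild-type replicate 2, within a range of 0.00117 to 0.125.

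Utf1, which binds chromatin and is among the most ES cell-restricted genes, had 46.4 and 42.8 CPM in RepB-/-, 59.0 and 54.3 CPM in RepB+/- and 35.0 and 46.2 CPM in wild type. The RepB-/- libraries overlapped the wild-type libraries, and both RepB+/- libraries were higher than either. The RepB-/- change was 0.15 with a 95% interval of -0.13 to 0.42 (log2, edgeR adjusted p = 0.500). Without wild-type replicate 1 it was -0.056 (adjusted p = 0.865, the highest of the alternatives, whose lowest was 0.236).

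The RepB+/- comparison was made against the same wild-type libraries, so its values are not an independent repeat. There 7 factors rose and 1 fell, while 16% of all genes tested were called, 9.12% rising and 6.84% falling. Those 7 were higher in both RepB+/- libraries than in both wild-type libraries, as were 30.5% of all genes, and 3 were lower in both, as were 28% of all genes. Without RepB+/- replicate 2, the library that stood apart, Pou5f1 changed by 1.83, Nanog by 1.86, Sox2 by 1.68, Esrrb by 1.77 and Zfp42 by 2.05 (log2). In that fit Klf2 changed by 0.96, Utf1 by 0.54, Klf4 by -0.48, Tbx3 by -0.38 and Sall4 by -0.225. The median log2 fold change was 1.34 over the 10 factors, against 0.02 over all genes. Pou5f1 changed by 1.63 (SE 0.16), Nanog by 1.65 (SE 0.16), Sox2 by 1.63 (SE 0.14), Esrrb by 1.64 (SE 0.14) and Zfp42 by 1.80 (SE 0.19) on the log2 scale, with edgeR adjusted p between 5.97e-06 and 2.76e-05.

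Klf2 rose by 1.06 in RepB+/- (log2, SE 0.12, edgeR adjusted p = 5.32e-05). Utf1 rose by 0.49 (SE 0.13, adjusted p = 0.0191), and this call was lost without RepB+/- replicate 1, when the change was 0.43 (adjusted p = 0.0864), and without wild-type replicate 1, when it was 0.29 (adjusted p = 0.255). Klf4 fell by 0.51 (SE 0.12, edgeR adjusted p = 0.0128), a call lost without wild-type replicate 2, when the change was -0.34 (adjusted p = 0.203). Over the 12 alternatives the adjusted p ran from 0.00161 to 0.255 for Utf1 and from 0.00116 to 0.203 for Klf4. Tbx3, at -0.32 (95% interval -0.61 to -0.03, adjusted p = 0.128), and Sall4, at -0.17 (95% interval -0.40 to 0.05, adjusted p = 0.275), did not pass the test in RepB+/-, although both were lower than wild type in each library.

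**Figure D2:**
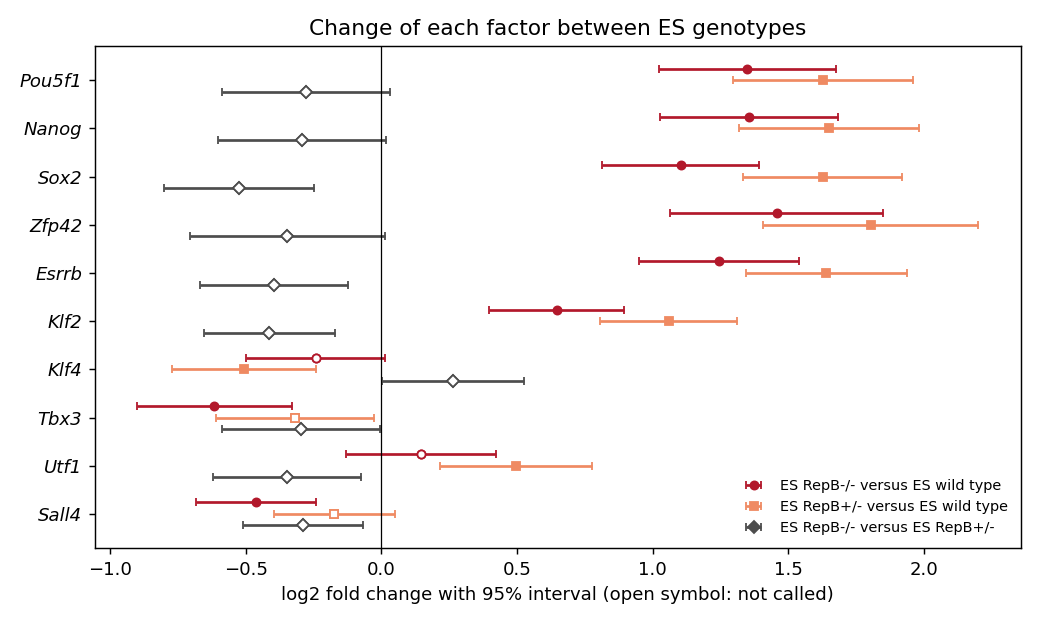
Log2 fold change of each factor with its 95% interval in the 3 comparisons between ES genotypes, where open symbols are changes that did not pass edgeR's test at 0.05. Changes of Pou5f1, Nanog, Sox2, Zfp42, Esrrb and Klf2 lie between 0.65 and 1.80 against wild type, and all 10 symbols for RepB-/- against RepB+/- are open.

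Between RepB-/- and RepB+/-, no factor was called by edgeR, and none by DESeq2. An unadjusted p under 0.05 was found for 7 of the 10 factors and for 1003 of all 15149 genes. After adjustment, 0.0858% of all genes were called, 0.0198% rising and 0.066% falling. The median log2 fold change over the factors was -0.32, against -0.01 over all genes. In 6 of the factors both RepB-/- libraries were lower than both RepB+/- libraries, which 17.4% of all genes showed, and 1, Klf4, was higher in both, as were 16.2% of all genes. The largest change was that of Sox2, at -0.52 (95% interval -0.80 to -0.25, edgeR adjusted p = 0.234). It was called without a filter on low counts, at -0.51 (adjusted p = 0.00712), and with the replicate number as a block, at -0.54 (adjusted p = 0.0193), within a range of 0.00712 to 0.9998 over 12 alternatives.

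The remaining intervals bound what these libraries could show between RepB-/- and RepB+/-. For Pou5f1 the change was -0.28 (95% interval -0.59 to 0.03), for Nanog -0.29 (-0.60 to 0.02) and for Zfp42 -0.35 (-0.71 to 0.01). For Esrrb it was -0.40 (-0.67 to -0.12), for Klf2 -0.41 (-0.65 to -0.17) and for Utf1 -0.35 (-0.62 to -0.08). Tbx3, at -0.30 (-0.59 to -0.01), and Sall4, at -0.29 (-0.51 to -0.07), had the same sign, and Klf4, at 0.26 (0.00 to 0.53), had the other. Without RepB+/- replicate 1, the changes of Pou5f1, Nanog and Zfp42 were 0.0054, 0.014 and 0.039. Without RepB+/- replicate 2, the library that stood apart, they were -0.48, -0.51 and -0.59.

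Levels of different genes were compared as RPKM, the CPM per kilobase of exon. The order of the factors differed between genotypes. In RepB-/-, Pou5f1 was highest at 62.4 ± 7.94 RPKM, followed by Utf1 at 38.5 ± 2.19 and Nanog at 31.9 ± 2.55 (SD, n = 2). Klf2 (24.7) and Sox2 (23.9) followed and overlapped each other, then came Zfp42 (20.4), Klf4 (15.8), Sall4 (11.5), Esrrb (8.49) and Tbx3 (4.53), each separate from its neighbour.

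In RepB+/-, Pou5f1 was also highest at 75.0 ± 17.9 RPKM and Utf1 followed at 48.8 ± 2.87 (SD, n = 2). Nanog (38.7), Sox2 (34.3) and Klf2 (33.2) overlapped from one to the next. Below them were Zfp42 (25.4), Sall4 (14.1), Klf4 (13.1), Esrrb (11.1) and Tbx3 (5.60). In wild type, Utf1 came first at 35.0 ± 6.84 RPKM and Pou5f1 followed at 24.6 ± 3.38 (SD, n = 2). Klf4 (18.8), Klf2 (15.9) and Sall4 (15.9) overlapped from one to the next, as did Nanog (12.6) with Sox2 (11.2) and Zfp42 (7.52) with Tbx3 (6.95), and Esrrb was lowest at 3.61.

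Other stem cell genes moved in part with the 10. Of 48 further genes in 3 lists, 18 rose and 6 fell in RepB-/- and 27 rose and 5 fell in RepB+/-, with median log2 fold changes of 0.33 and 0.76. The 20 stem cell genes that are not transcription factors moved most: 12 rose and 2 fell in RepB-/- (median 1.21), and 16 rose and 1 fell in RepB+/- (median 1.55). Dppa4, a nuclear protein of pluripotent cells, had 9.04 and 6.26 CPM in RepB-/-, 10.6 and 7.63 CPM in RepB+/- and 1.81 and 2.12 CPM in wild type, and rose in RepB-/- by 1.99 (SE 0.27, edgeR adjusted p = 0.00023). Tcl1, a coactivator of the AKT kinase, rose by 1.63 (SE 0.20), Fbxo15, an F-box protein under Pou5f1 and Sox2 control, by 1.44 (SE 0.19) and Dnmt3l, a cofactor of de novo DNA methylation, by 1.43 (SE 0.19) in RepB-/-. In RepB+/- Gdf3, a ligand of the TGF-beta family, rose by 2.00 (SE 0.21), Tcl1 by 1.93 (SE 0.20), Fbxo15 by 1.76 (SE 0.19) and Dnmt3l by 1.69 (SE 0.19).

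Among 21 further transcription factors, 6 rose and 3 fell in RepB-/- (median 0.26), and 11 rose and 3 fell in RepB+/- (median 0.42). Their summed level was nevertheless lower in every RepB library, at 1364.5 and 1377.9 CPM in RepB-/- and 1438.7 and 1462.4 CPM in RepB+/-, against 1478.6 and 1551.4 CPM in wild type. Much of that difference lay in the repressor Tcf7l1, whose levels are given below. The sum therefore does not show that the list as a whole was lower. Nr0b1, an X-linked nuclear receptor that binds Pou5f1, rose by 1.88 in RepB-/- (SE 0.34) and by 2.39 in RepB+/- (SE 0.34). Etv5, an ETS factor downstream of FGF signalling, rose by 0.71 (SE 0.13) in RepB-/- and by 0.91 (SE 0.13) in RepB+/-, where its relative Etv4 rose by 1.51 (SE 0.20). Tcf7l1, which represses the stem cell circuit under low Wnt signalling, fell by 0.57 in RepB-/- (SE 0.11, edgeR adjusted p = 0.00316), with 210.9 and 224.6 CPM in RepB-/-, 225.3 and 243.9 CPM in RepB+/- and 323.8 and 322.8 CPM in wild type.

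Of 7 genes of LIF signalling, none rose and only Pim3, a kinase induced by Stat3, fell, by 0.43 in RepB-/- (SE 0.11, edgeR adjusted p = 0.022) and by 0.36 in RepB+/- (SE 0.12, adjusted p = 0.045). The medians of this list were 0.02 in RepB-/- and -0.04 in RepB+/-. An unadjusted p under 0.05 was found for 1 of its 7 genes in each RepB genotype, and for 4183 of all 15149 genes in RepB-/- and 4717 in RepB+/-. Between RepB-/- and RepB+/- a single gene of the 48 was called. Lin28a, an RNA-binding protein that blocks let-7 processing, had 38.1 and 28.5 CPM in RepB-/- and 59.9 and 53.0 CPM in RepB+/-, and fell by 0.77 (SE 0.14, edgeR adjusted p = 0.0494). Leaving out RepB+/- replicate 2 made this count 4, and leaving out RepB-/- replicate 2 or either wild-type library made it 0.

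Markers of other cell types and states also differed between the genotypes, and their part in the changes of the 10 factors was not tested. No gene of these lists was at 0 in all 6 ES libraries. The summed level of 10 cardiac muscle genes was 263.9 and 265.8 CPM in RepB-/-, 305.1 and 332.3 CPM in RepB+/- and 592.7 and 661.0 CPM in wild type, and 7 of the 10 fell in each RepB genotype. Myh7, a cardiac myosin heavy chain, fell by 2.21 in RepB-/- (log2, SE 0.11, edgeR adjusted p = 3.13e-08).

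The summed level of 8 epithelial genes was 1523.1 and 1213.2 CPM in RepB-/-, 1424.9 and 1390.7 CPM in RepB+/- and 1984.1 and 2137.4 CPM in wild type, with 5 falling in RepB-/- and 4 in RepB+/-. For 8 trophoblast genes it was 273.1 and 229.1 CPM in RepB-/-, 224.6 and 244.8 CPM in RepB+/- and 328.3 and 350.9 CPM in wild type, and of the 7 tested, 4 fell in RepB-/- and 5 in RepB+/-. For 10 proliferation genes it was 1743.0 and 1789.7 CPM in RepB-/-, 1901.0 and 1730.8 CPM in RepB+/- and 1605.2 and 1600.7 CPM in wild type, and 2 rose in each RepB genotype. The RepB libraries were thus below wild type for the heart, epithelial and trophoblast lists and above it for the proliferation list.

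Fibroblast genes were summed as well, and whether their RNA came from feeder cells or from differentiated ES cells was not tested. The summed level of 10 of them was 26539.7 and 31716.7 CPM in RepB-/-, 22896.3 and 40299.2 CPM in RepB+/- and 29111.6 and 36371.1 CPM in wild type, so that the genotypes overlapped. In RepB-/- 4 rose and 1 fell, and in RepB+/- 3 rose and 1 fell, so single genes differed where the sums overlapped. Dcn rose by 0.97 in RepB-/- and by 0.84 in RepB+/-, and Lum by 0.50 and 0.37 (log2). Postn fell by 0.84 in RepB-/- and by 0.80 in RepB+/-. RepB+/- replicate 2, which stood apart in the principal components, had the highest of these sums.

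**Figure D3:**
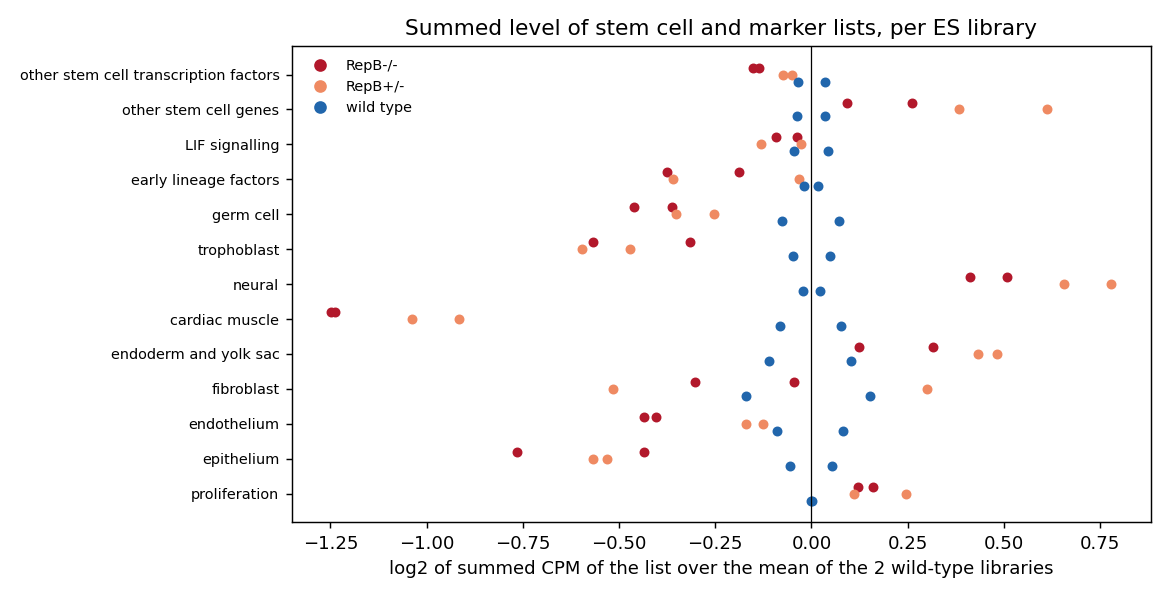
Summed CPM of each gene list in each ES library, as log2 of its ratio to the mean of the 2 wild-type libraries, with a point per library. RepB libraries lie above wild type for stem cell genes other than transcription factors and below it for the other stem cell transcription factors, cardiac muscle, trophoblast and epithelium, and the fibroblast sums of the genotypes overlap. The lower sums of the other stem cell transcription factors lay largely in the repressor Tcf7l1.

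The genes whose pattern over the 6 ES libraries was most like that of Pou5f1 were found by the root-mean-square difference of log2 CPM centred on each gene's mean, among 11447 genes averaging 5 CPM or more. Nanog was nearest, at 0.03, followed outside the 10 factors by Dnmt3l at 0.05. Esrrb (0.09) and Zfp42 (0.09) ranked 3 and 4 of all genes and Sox2 (0.21) ranked 46. The next non-members were Triml2, a tripartite motif-like gene, and the X-linked gene Map7d2, each at 0.10, then Aire, a transcriptional regulator known from the thymus (0.10), and the X-linked gene Pdzd4 (0.12). Klf2 (0.36) ranked 170 and Utf1 (0.55) ranked 1066. Sall4 (0.86), Klf4 (0.90) and Tbx3 (0.94) were far from Pou5f1, at ranks 9802, 10498 and 10865. These values describe 6 libraries of 3 genotypes, and all genes compared share the libraries and their depths.

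In fibroblasts most of the 10 factors had few or no counts. Pou5f1, Zfp42 and Esrrb had 0 counts in both the RepB and the wild-type MEF library. Sall4 had 1 count in RepB and 0 in wild type, Sox2 had 1 in each, Utf1 had 0 in RepB and 1 in wild type, and Nanog had 9 in RepB and 3 in wild type. Against a floor of 3 counts in the wild-type MEF library, wild-type ES cultures had at least 118-fold more Pou5f1, 44.8-fold more Zfp42, 55.1-fold more Esrrb and 266-fold more Sall4.

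Klf2, Klf4 and Tbx3 were expressed in fibroblasts. Klf2 had 216 counts in RepB MEF and 366 in wild-type MEF, a scaled ratio of 0.351 (95% interval 0.295 to 0.416, counting error only). Tbx3 had 123 counts in RepB MEF and 194 in wild-type MEF, a ratio of 0.377 (0.298 to 0.475). Klf4 had 1008 counts in RepB MEF and 455 in wild-type MEF, a ratio of 1.32 (1.18 to 1.47). The intervals treat reads as independent molecules and compare these libraries, not the genotypes. Klf2 and Tbx3 were past a log2 ratio of 1 in the lower direction, as were 6.47% of 11680 genes averaging at least 1 CPM, and no measured member was past it in the higher direction, where 3.33% of genes lay (9.8% in either direction).

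Per kilobase, wild-type ES cultures had 15.3 ± 1.16 RPKM of Klf2 (SD, n = 2), against 19.6 RPKM in wild-type MEF. For Klf4 the levels were 18.1 ± 2.96 RPKM in wild-type ES cultures and 14.5 RPKM in wild-type MEF, and for Tbx3 6.70 ± 0.52 and 3.89 RPKM. These 3 genes were thus within 2-fold of the fibroblast level in wild type. The ES and MEF tables were counted separately, and no test was made between them.

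**Figure D4:**
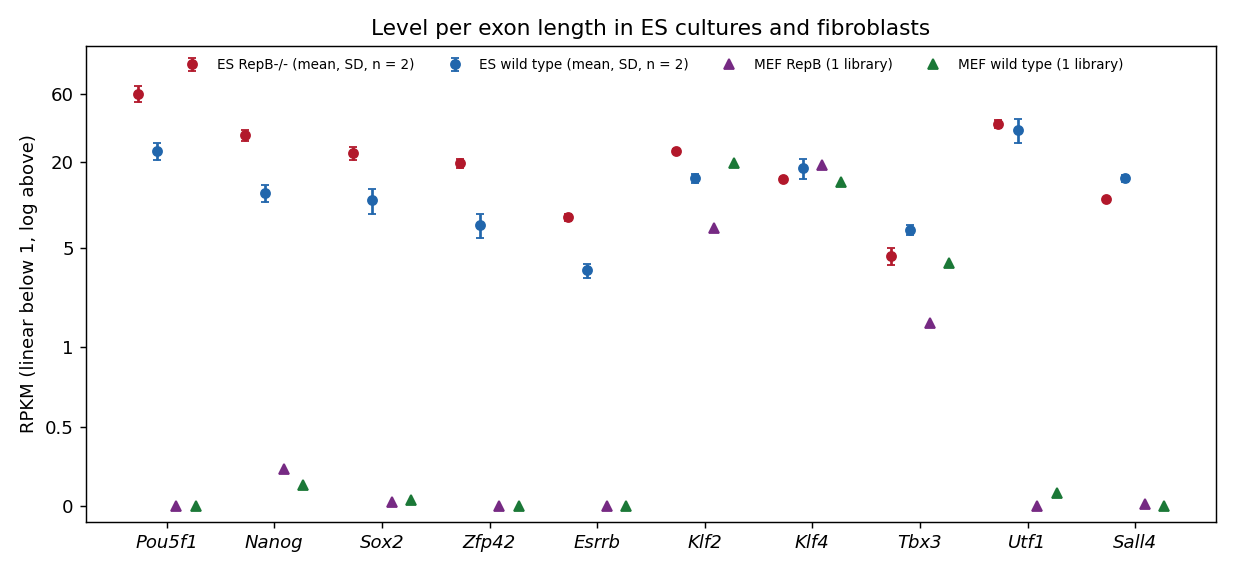
Level per exon length (RPKM, axis linear below 1 and logarithmic above) of each factor in RepB-/- and wild-type ES cultures (circles, mean with SD, n = 2) and in RepB and wild-type MEF (triangles, 1 library each). Klf2, Klf4 and Tbx3 have fibroblast levels between 1.47 and 19.6 RPKM, and the other 7 factors are below 0.24 RPKM in both MEF libraries.

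Allelic reads are those that could be assigned to the 129 or the CAST copy. Shares are given for libraries with at least 20 reads assigned to the 129 or the CAST copy. Of 9277 autosomal genes measured in the same way, 63.4% had over 90% of such reads from 129 and the median share was 98.7%, while 33.9% of genes lay between 20% and 80%. A share near 100% was therefore common in these cells and was not particular to the factors that had it. Whether a gene with such a share had a CAST copy that could be read was not tested.

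Sox2 (chromosome 3) had 129 shares of 99.2% and 100% in RepB-/-, 99.5% and 100% in RepB+/- and 100% in each wild-type library. Esrrb (chromosome 12) lay between 99.5% and 100% and Utf1 (chromosome 7) between 97.9% and 100% in the 6 libraries. Genes within 1 Mb had a median share of 99.6% for Esrrb and 99.1% for Utf1. The 2 neighbours of Sox2 that were measured had 65.4% and 99.7%. Tbx3 (chromosome 5) lay between 47.1% and 54.5%, Sall4 (chromosome 2) between 42.2% and 50.9% and Klf2 (chromosome 8) between 35.5% and 40.9%, close to the medians of genes within 1 Mb, which were 48.6%, 50.6% and 34.1%. Those 3 genes were read from both chromosomes, and the shares of each spanned under 10 percentage points over the 6 libraries.

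Zfp42 (chromosome 8) had 129 shares of 37.1% and 42.8% in RepB-/-, 36.0% and 44.1% in RepB+/- and 32.4% and 31.3% in wild type. The RepB shares were all higher than the wild-type shares, but the exact 95% intervals overlapped, with 115 to 998 allelic reads per library. Zfp42 was read from both copies in every genotype.

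For Nanog (chromosome 6), 98.2% and 91.8% of reads were from 129 in RepB-/-, 94.8% and 94.3% in RepB+/- and 89.5% and 93.6% in wild type, against a median of 99.7% for its neighbours. Klf4 (chromosome 4) lay between 68.0% and 80.5%, against 99.5% and 99.9% in the 2 neighbours measured. Pou5f1 (chromosome 17) had only 4 to 80 allelic reads per library, and its share was 39.7% and 37.5% in RepB-/- and 31.3% in RepB+/- replicate 1, against a neighbour median of 99.1%. For Pou5f1 and Nanog, the processed copies named above could contribute reads, and their part in these shares was not tested.

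**Figure D5:**
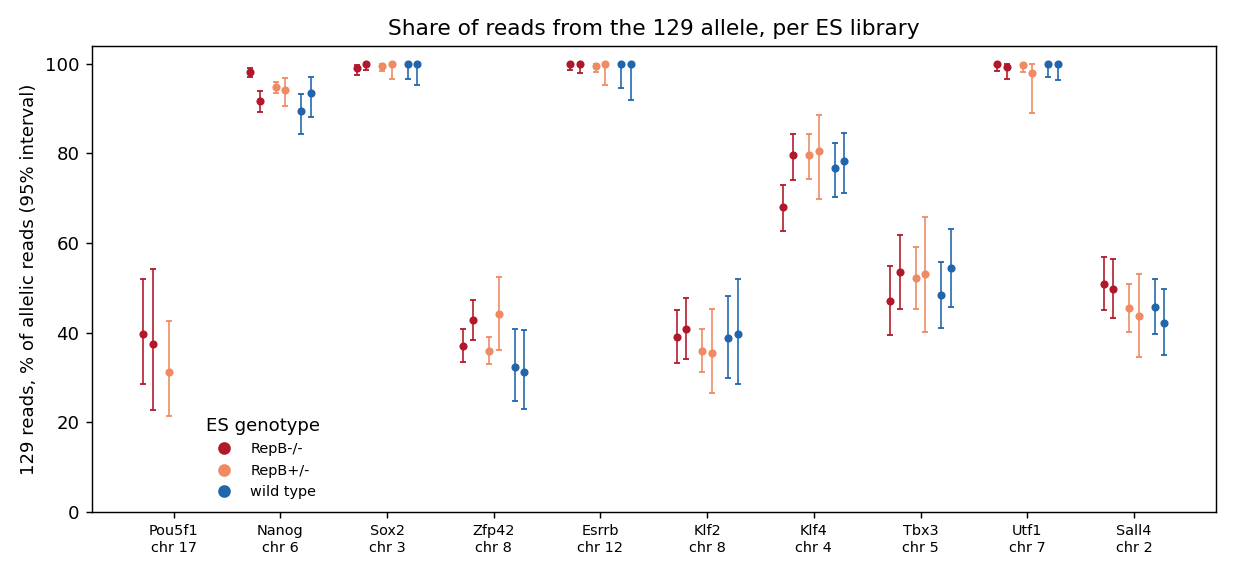
Share of allelic reads from the 129 copy for each factor in each ES library, with exact 95% intervals. Sox2, Esrrb and Utf1 stand between 97.9% and 100%, whereas Zfp42, Klf2, Tbx3, Sall4 and Pou5f1 stand between 31.3% and 54.5%, Nanog between 89.5% and 98.2% and Klf4 between 68.0% and 80.5%.

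In the deposited tables, which are on the mm9 build, the factors are listed by exon, with Pou5f1 on chromosome 17 (exon 35642977 to 35643428, plus strand), Nanog on chromosome 6 (122657507 to 122657534, plus strand) and Sox2 on chromosome 3 (34548927 to 34551382, plus strand). Zfp42 is on chromosome 8 (44380421 to 44381890, minus strand) and Esrrb on chromosome 12 (87702067 to 87702488, plus strand). Klf2 is on chromosome 8 (74842961 to 74843048, plus strand), Klf4 on chromosome 4 (55540009 to 55541172, minus strand) and Tbx3 on chromosome 5 (120120871 to 120121066, plus strand). Utf1 is on chromosome 7 (147129755 to 147130328, plus strand) and Sall4 on chromosome 2 (168573832 to 168575960, minus strand). The tables list a single exon for each, which is not always the whole region counted. The counted exon length ranges from 1160 bases in Utf1 to 5073 bases in Sall4. It is 2242 bases in Nanog and 1816 bases in Klf2, more than the exon listed for either.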

How the data were processed

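The authors deposited raw read counts per gene on mm9 for all reads and for reads assigned to the 129 or CAST allele, with the layout of featureCounts, per the file headers. The submitters' processing notes name Novoalign, SAMtools, bedtools, TopHat, featureCounts, cutadapt and HOMER without roles. Whether counting used strand is not given in the sources used here, so overlapping antisense reads could not be told apart. A joint fit of all 6 ES libraries used edgeR 4.0.16 under R 4.3.3 (quasi-likelihood F-test, TMM scaling, genotype as the only term, genes kept by filterByExpr with a minimum count of 10 and total of 15, Benjamini-Hochberg adjustment over 15149 genes, call at 0.05). The fit was tested on simulated counts for RepB-/- against wild type, with the same spread for all genes. It recovered 99 of 100 genes changed 2-fold and 67 of 100 changed 1.5-fold, with 4 false calls. MEF ratios used TMM-scaled counts, with a prior count of 2 for log2 ratios, and had no test. Allelic shares have exact Clopper-Pearson 95% intervals, which cover counting error only. The members and lists were chosen with earlier results of these data known. All 10 members are named, and from each other list the 4 called genes with the lowest adjusted p, or the 2 with the lowest p where none was called. A gene that this rule names is not reported here. Alternatives were DESeq2 1.42.0 (its size factors and its Wald test), library totals, no filter, a replicate block, only the genotypes compared, and leaving out each library.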

Additional observations from a re-analysis of the deposited data

Results flagged for a closer look

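Klf2 moved in opposite directions in ES cultures and fibroblasts. It was higher in all 4 RepB ES libraries than in both wild-type libraries and lower in the RepB MEF library than in the wild-type MEF library. The log2 fold change in RepB-/- ES cultures minus the log2 ratio in MEF was 2.15. Klf4 went the other way, lower in all 4 RepB ES libraries and higher in RepB MEF, with a difference of -0.64. Neither difference was tested, since MEF has 1 library per genotype. The RepB-/- change of Klf4 was not called (edgeR adjusted p = 0.205), and its log2 ratio in MEF was 0.40, under the threshold of 1. Among all genes, 31.5% in RepB-/- and 30.5% in RepB+/- were higher than wild type without overlap, the direction of Klf2. In the direction of Klf4, 27.9% in RepB-/- and 28% in RepB+/- were lower without overlap.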

How the results depend on the processing

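The 6 factors that rose in RepB-/- were counted as 6 under every alternative run, and 346 of 360 gene results kept direction and side of the threshold. For the others the cause was not tested. Leaving out one library in turn gave 0 to 2 factors that fell in RepB-/-, 6 to 7 that rose and 0 to 1 that fell in RepB+/-, and, of the other stem cell genes, 14 to 20 rising and 2 to 7 falling in RepB-/-, 0 to 6 falling in RepB+/- and 0 to 4 falling in RepB-/- against RepB+/-. With library totals, 3 other stem cell genes fell in RepB+/- and 0 in RepB-/- against RepB+/-. In that last comparison, no filter gave 1 factor (Sox2) and 5 other genes that fell, the replicate block gave 1 and 3, and fitting only the genotypes compared gave 0 other genes. Directions reversed, all with small changes, when a library was left out: Utf1 in RepB-/- against wild type ranged from -0.056 to 0.35, and in RepB-/- against RepB+/- Pou5f1 ranged from -0.48 to 0.0054, Nanog from -0.51 to 0.014 and Zfp42 from -0.59 to 0.039. The labels do not say that replicate numbers pair the libraries. Same-numbered deviations correlated at 0.07 (RepB-/- and wild type), 0.11 (RepB+/- and wild type) and 0.19 (RepB-/- and RepB+/-), and with the replicate block 6 factors rose and 2 fell in RepB-/- and 7 rose and 1 fell in RepB+/-. Depth limits the allelic share of Pou5f1, with 4 to 80 allelic reads per library. At a minimum of 50 allelic reads, 7 rather than 9 factors had a share in every ES library.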

Other observations

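Early lineage and tissue genes named by the same rule also differed. Of all genes tested, 7.27% rose and 5.49% fell in RepB-/-, and 9.12% rose and 6.84% fell in RepB+/-. Of 13 early lineage factors tested, 2 rose and 2 fell in RepB-/- and 7 rose and 2 fell in RepB+/-. The summed level of the 15 listed was nevertheless lower in every RepB library. It was 549.6 and 625.6 CPM in RepB-/-, 555.9 and 697.6 CPM in RepB+/- and 703.7 and 722 CPM in wild type. Of this, Hand1 had 140 and 144.9 CPM in RepB-/-, 119.5 and 147 CPM in RepB+/- and 257 and 309 CPM in wild type. The lower sum thus lay largely in Hand1 and not in the list as a whole. Fgf5, a growth factor of the primed epiblast, had 1.48 and 1.74 CPM in RepB-/-, 4.99 and 1.42 CPM in RepB+/- and 0.31 and 0.34 CPM in wild type. Otx2, a homeobox factor of the primed epiblast and anterior brain, rose by 0.70 in RepB-/- (log2, SE 0.21) and by 1.60 in RepB+/- (SE 0.21). Hand1, a factor of heart and extraembryonic mesoderm, fell by 0.99 in RepB-/- (SE 0.13) and by 1.09 in RepB+/- (SE 0.13). Of 10 endoderm and yolk sac genes, 3 rose in RepB-/- and 7 in RepB+/-, none falling. Afp, a serum protein of the yolk sac, had 283.0 and 239.2 CPM in RepB-/-, 332.8 and 296.2 CPM in RepB+/- and 102.6 and 95.5 CPM in wild type.

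Of 10 germ cell genes, 1 rose and 1 fell in RepB-/- and 3 rose and 1 fell in RepB+/-. The medians of the list were 0.56 in RepB-/- and 0.77 in RepB+/-. Its summed level was nevertheless lower in every RepB library. It was 143.6 and 134.2 CPM in RepB-/-, 155.1 and 144.8 CPM in RepB+/- and 175.2 and 194.3 CPM in wild type. Of this, Tfap2c had 72.1 and 67.2 CPM in RepB-/-, 67.3 and 69.0 CPM in RepB+/- and 109.8 and 129.2 CPM in wild type. The lower sum thus lay in Tfap2c and not in the list as a whole. Prdm1, a repressor that specifies germ cells, rose by 0.64 (SE 0.17) in RepB-/- and by 0.80 (SE 0.17) in RepB+/-. Mael, a piRNA pathway gene, rose by 1.52 (SE 0.38) and Dazl, a germ cell RNA-binding protein, by 0.92 (SE 0.29) in RepB+/-. Tfap2c, an AP-2 factor of germ cells and trophoblast, fell by 0.78 (SE 0.11) in RepB-/- and by 0.81 (SE 0.11) in RepB+/-. Of 6 neural genes tested, 2 rose and 2 fell in RepB-/- and 3 rose and 2 fell in RepB+/-, with Nes, an intermediate filament of neural progenitors, up by 0.74 in RepB-/- (SE 0.11) and by 1.02 in RepB+/- (SE 0.11). Of 8 endothelial genes, none rose and 3 fell in RepB-/- and 2 rose and 2 fell in RepB+/-. Kdr, a VEGF receptor, fell by 1.02 (SE 0.14) in RepB-/- and by 0.83 (SE 0.14) in RepB+/-. Pecam1, an endothelial adhesion molecule, rose by 0.66 (SE 0.11) and Emcn, an endothelial sialomucin, by 0.82 (SE 0.17) in RepB+/-.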
